A study of Mus musculus with 12 samples.

Results

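OCY454 is a mouse cell line used as a model of the osteocyte, the cell buried in mineralised bone that senses load. Its cells grow at 33 °C under a temperature-sensitive large T antigen and differentiate after a shift to 37 °C. The change of wild-type (WT) cells between day 14 and day 28 at 37 °C was followed across all expressed genes, in 2 libraries of day 14 and 2 of day 28. These 4 libraries are part of a series of 12, which also holds WT cells at day 1 and a Piezo1 knockout (KO) line at days 1, 14 and 28, with 2 libraries per group. The KO line is an OCY454 derivative in which exons 19 to 21 of Piezo1, a stretch-gated cation channel, were deleted by CRISPR-Cas9. All groups carry the large T antigen. The labels do not say how many clones the KO line represents or whether replicates are separate cultures. A p-value therefore reflects only the scatter between libraries, which the fit pools over all 12. RNA was taken from 12-well plates and read as poly(A) RNA-seq.

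Osteoblasts that become osteocytes are known first to lay down a matrix of type I collagen, then to mineralise it, and finally to change their gene programme as they become embedded. Making collagen in bulk loads the endoplasmic reticulum, the compartment where secreted proteins fold. The unfolded protein response is the pathway by which a cell that folds much protein raises its chaperones. A related pathway, the integrated stress response, acts through the factors ATF4 and CHOP and turns on amino acid supply genes. The interferon response is a further programme, in which STAT and IRF factors turn on antiviral and antigen-presentation genes.

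The 4 libraries held 11801705 and 8590067 counts at day 14 and 14150225 and 12021068 at day 28, within the range of 8590067 to 15357427 over all 12. Of 32248 rows in the count table, 13772 genes had enough counts to be tested. Levels are given in CPM, counts scaled to a common library total after TMM normalisation, and changes as log2 fold changes of day 28 over day 14 with their standard errors. A gene was called where edgeR's quasi-likelihood F test gave a Benjamini-Hochberg adjusted p below 0.05 over all genes tested. Adjusted p-values below are from that test. The name of the line was set against osteocyte markers. Sost, the Wnt inhibitor of mature osteocytes, stood at 0.506 and 1.16 CPM at day 14 and 0.628 and 0.743 at day 28, and Mepe, a mineral matrix protein, at 0.843 and 2.20 CPM at day 14 and 1.19 and 0.495 at day 28. Fgf23, the phosphate hormone of osteocytes, had too few counts to be tested. Dmp1, an acidic matrix protein of early osteocytes, stood at 11.9 and 16.1 CPM at day 14 and 12.8 and 8.17 at day 28. The defining markers of late osteocytes were thus near 0 at both days, and Dmp1 was low.

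Of the 13772 genes, 4778 were called (34.7%), of which 2461 were higher at day 28 (17.9%) and 2317 were lower (16.8%). The median log2 fold change was -0.01, with quartiles of -0.25 and 0.24. A change of more than 2-fold was seen in 301 called genes that were higher (2.19%) and in 317 that were lower (2.3%). With a mean of at least 5 CPM required, the numbers were 106 and 163, so many of these genes lay at lower levels. In 4764 of the 4778 called genes the 2 days did not overlap. With 2 libraries a day a call nearly requires this, so the count is no separate support for the calls. The share over all genes tested was not counted. The 2 day 28 libraries were not equally far from day 14. Among the 317 genes lowered by more than 2-fold, replicate 2 of day 28 was below replicate 1 in 255, with a median log2 ratio of -0.40, whereas over all genes tested it was below in 7269 of 13772, with a median of -0.02. Among the 301 genes raised by more than 2-fold, replicate 2 was above replicate 1 in 202. The number lowered by more than 2-fold was 529 without replicate 1 of day 28 and 203 without replicate 2. The part of this spread in single changes was not tested. Bulk RNA cannot tell fewer cells of a kind from less RNA per cell.

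**Figure D1:**
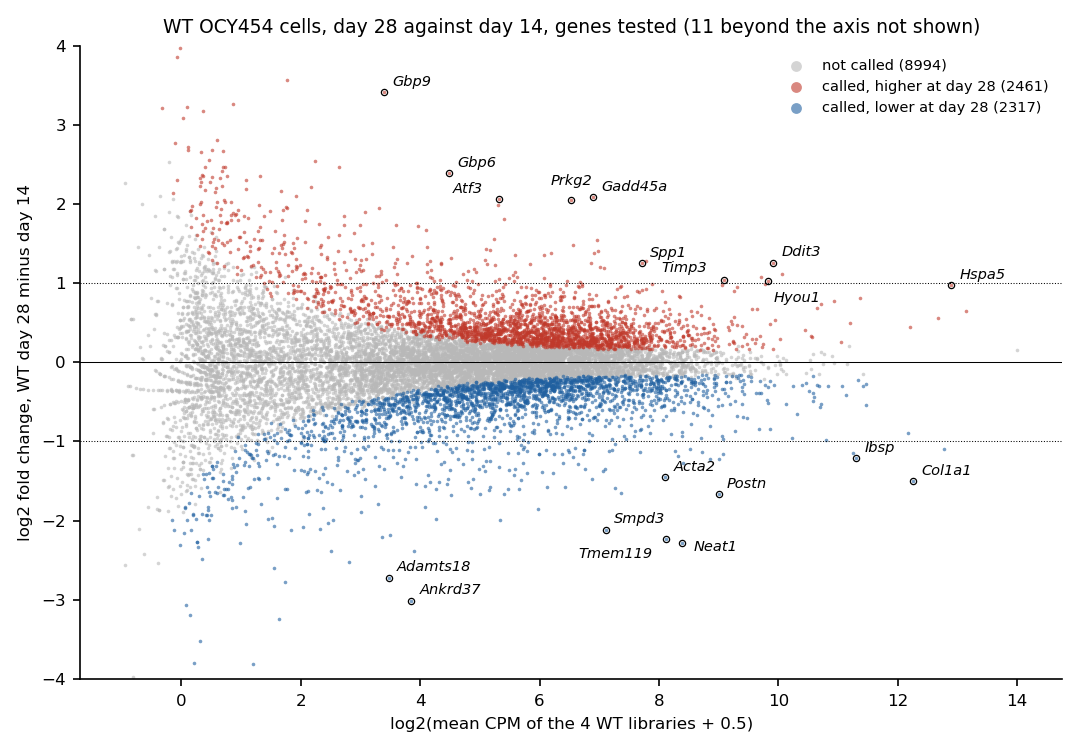
Each point is a tested gene, placed by the log2 of its mean CPM over the 4 WT libraries plus 0.5 and by its log2 fold change of day 28 over day 14. Red points are called higher (2461) and blue points called lower (2317), dotted lines mark 2-fold, and 11 genes beyond the axis are not drawn. Hspa5 and Col1a1, both abundant, lie far from 0 on opposite sides.

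The largest rises were in guanylate-binding proteins, stress genes and several genes of signalling and membrane traffic. Gbp9, an interferon-inducible GTPase, stood at 1.77 and 1.62 CPM at day 14 and 19.3 and 17.3 at day 28 (log2 fold change 3.41 ± 0.31, adjusted p = 8.06e-08). Gbp6, of the same family, stood at 7.67 and 6.25 CPM at day 14 and 35.2 and 38.8 at day 28 (2.39 ± 0.24, adjusted p = 1.92e-07). Both day 28 libraries were far above both day 14 libraries for each. Exons of Gbp9 overlap those of Gbp4 and Gbp8 on the same strand in the annotation, and the family is near-identical in parts, so reads may be split between members. Gadd45a, a growth-arrest gene of the stress response (ENSMUSG00000036390.8, chromosome 6, 67035096 to 67037457, minus strand), stood at 45.4 and 44.4 CPM at day 14 and 164 and 218 at day 28 (2.09 ± 0.11, adjusted p = 1.3e-10). Atf3, a stress-induced transcription factor (ENSMUSG00000026628.13, chromosome 1, 191170296 to 191218039, minus strand), stood at 17.1 and 12.96 CPM at day 14 and 61.8 and 65.1 at day 28 (2.06 ± 0.12, adjusted p = 2.53e-10). At day 1 these 2 genes stood at 55.9 and 54.1 CPM and at 29.00 and 28.7 CPM, so day 28 was above both earlier days. Prkg2, the membrane-bound cGMP-dependent kinase, stood at 38.2 and 33.2 CPM at day 14 and 142 and 155 at day 28 (2.05 ± 0.10, adjusted p = 2.64e-11). Tfcp2l1, a transcription factor, stood at 14.9 and 16.4 CPM at day 14 and 52.5 and 71.4 at day 28 (1.98 ± 0.14, adjusted p = 2.34e-09). Ostn, which encodes the secreted peptide osteocrin, stood at 4.13 and 3.59 CPM at day 14 and 13.8 and 16.3 at day 28 (1.95 ± 0.22, adjusted p = 2.47e-06). All genes ranked here were chosen with at least 5 CPM and no overlap of days, so that separation is no separate result. The others among the 15 largest rises were Gm15708 (2.46), Plscr2 (1.90), Dlg2 (1.85), Apol9b (1.81), Pla2g4c (1.74), Rragd (1.74), Baiap2l1 (1.73) and St3gal6 (1.73). Gm15708 and Baiap2l1 overlap on opposite strands, as do Gadd45a and E230016M11Rik and Ostn and Gm32312, and no label says whether counting used strand, so their reads cannot be told apart. Gbp8 had 0 counts in both day 14 libraries and 75 over those of day 28, which is at least 19.4-fold higher against a floor of 3 counts over the group. It was named after its values were seen.

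The largest falls included a nuclear RNA and genes of bone formation. Neat1, the long RNA that scaffolds nuclear paraspeckles (ENSMUSG00000092274.3, chromosome 19, 5824708 to 5845478, minus strand), stood at 554 and 549 CPM at day 14 and 157 and 68.6 at day 28 (-2.28 ± 0.19, adjusted p = 2.41e-08). Tmem119, an osteoblast membrane protein, stood at 453 and 465 CPM at day 14 and 134 and 59.6 at day 28 (-2.23 ± 0.21, adjusted p = 8.16e-08). The day 28 libraries were below those of day 14 for both, and replicate 2 of day 28 was far below replicate 1. Ankrd37, a target of hypoxia-inducible factor, had the lowest log2 fold change among genes of at least 5 CPM, from 25.4 and 24.3 CPM to 4.47 and 1.49 (-3.01 ± 0.24, adjusted p = 1.79e-08). Its exons overlap those of Lrp2bp and Ufsp2 on the opposite strand. Klf2, a flow-responsive transcription factor, stood at 28.5 and 31.8 CPM at day 14 and 9.42 and 5.61 at day 28 (-1.98 ± 0.18, adjusted p = 7.51e-08). Car3, carbonic anhydrase 3, stood at 61.9 and 65.8 CPM at day 14 and 17.7 and 14.1 at day 28 (-1.99 ± 0.14, adjusted p = 1.65e-09). Ptgfr, the receptor of prostaglandin F2 alpha, stood at 96.2 and 100.2 CPM at day 14 and 33.6 and 20.1 at day 28 (-1.85 ± 0.13, adjusted p = 3.16e-09). As with the rises, only genes whose days did not overlap were ranked, so that separation is no separate result. The other large falls were Adamts18 (-2.72), C430049B03Rik (-2.39), Grhl3 (-2.38), Pcolce2 (-2.20), Gpr35 (-2.18), Smpd3 (-2.11), Btla (-1.99) and Col2a1 (-1.89). Without replicate 1 of day 28 the fall was over 1.5 times as large in 8 of these genes: Ankrd37 (-4.06), Adamts18 (-3.64), Grhl3 (-3.16), Neat1 (-3.01), Tmem119 (-2.95), Gpr35 (-3.17), Smpd3 (-2.72) and Btla (-2.78).

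**Figure D2:**
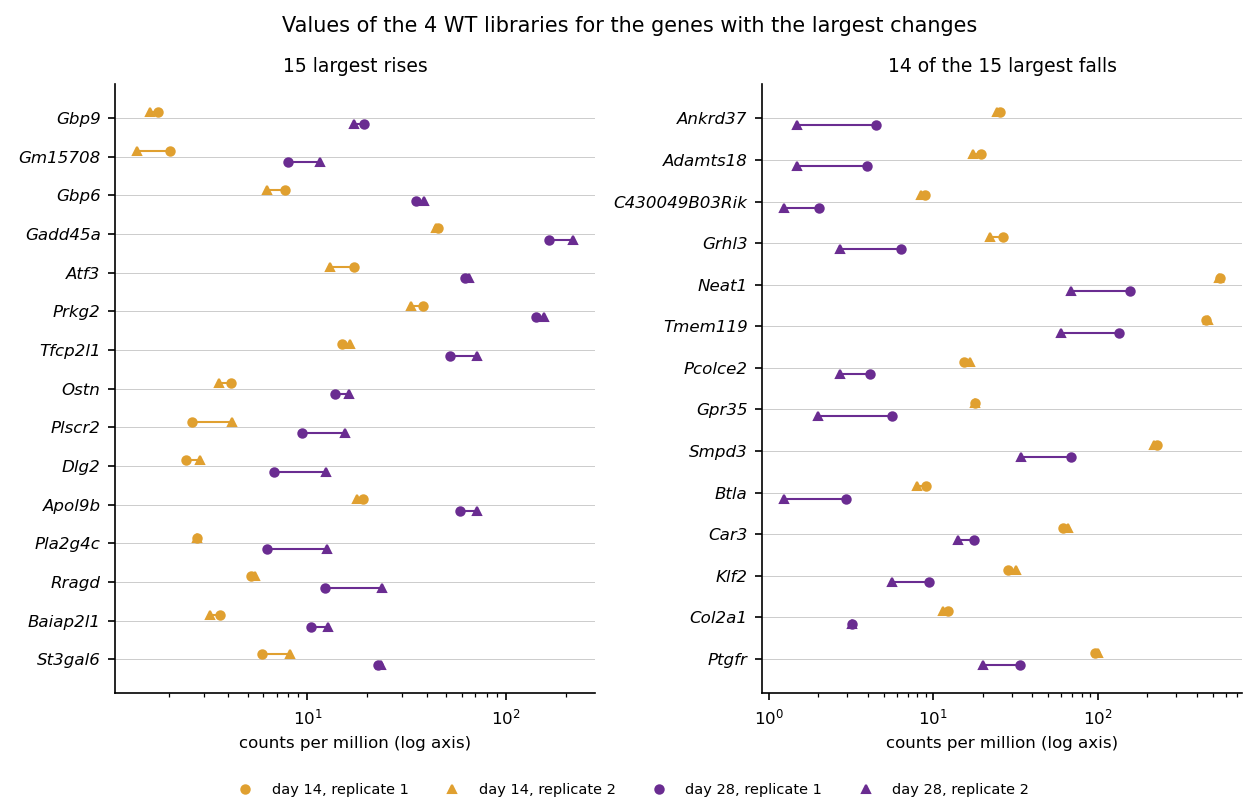
CPM, on a log axis, of the 15 genes with the largest rises and 14 of the 15 with the largest falls among called genes of at least 5 CPM whose days did not overlap. Orange points are day 14 and purple points day 28, circles are replicate 1 and triangles replicate 2, and a line joins the replicates of a day. In most of the falls, among them Ankrd37 and Neat1, the triangle of day 28 lies to the left of the circle.

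Chaperones of the endoplasmic reticulum rose almost throughout. Of 22 tested genes of the unfolded protein response, 21 were higher at day 28 and 0 lower, with a median log2 fold change of 0.68 against -0.01 over all genes, of which 17.9% were higher. Hspa5, which encodes the chaperone BiP (ENSMUSG00000026864.13, chromosome 2, 34771970 to 34777547, plus strand), stood at 4987 and 5262 CPM at day 14 and 9778 and 10339 at day 28 (0.97 ± 0.07, adjusted p = 1.81e-09). Hyou1, a nucleotide exchange factor for BiP (ENSMUSG00000032115.14, chromosome 9, 44379490 to 44392369, plus strand), stood at 580.3 and 611 CPM at day 14 and 1070.5 and 1352 at day 28 (1.02 ± 0.09, adjusted p = 2.27e-08). Creld2, a secreted disulfide isomerase of the stressed compartment, stood at 355 and 362 CPM at day 14 and 666 and 744 at day 28 (0.97 ± 0.06, adjusted p = 1.15e-09). In all 3 genes both day 28 libraries were above both of day 14, and these were above day 1, where Hspa5 stood at 1012 and 1062 CPM. The sensors rose as well. Atf6, the membrane-bound factor that is cut loose to turn on chaperones, stood at 159.8 and 156 CPM at day 14 and 274 and 352 at day 28 (0.98 ± 0.09, adjusted p = 4.16e-08). Ern1, which encodes IRE1 alpha, stood at 82.3 and 87.5 CPM at day 14 and 139 and 157 at day 28 (0.80 ± 0.08, adjusted p = 1.02e-07). Unlike the chaperones, both sensors stood at day 1 about where they stood at day 14, with 152 and 165 CPM for Atf6 and 91.1 and 90.3 for Ern1. Among the other chaperones, the log2 fold changes were 0.65 for Hsp90b1, 0.74 for Pdia4, 0.95 for Manf and 0.45 for Calr. Genes of the degradation arm, which removes misfolded proteins, rose too: Herpud1 by 0.89, Syvn1 by 0.89 and Sel1l by 0.59. Selenos was the member that was not called (0.21, adjusted p = 0.0628), and it was called without replicate 2 of day 14 (0.33, adjusted p = 0.023) or replicate 1 of day 28 (0.28, adjusted p = 0.0114).

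The promoters of 3 chaperones are shown because the stress element that ATF6 is known to bind can be read in them. Each run is the 250 bases before the start annotated by RefSeq on GRCm38.p6, 5′ to 3′ on the gene's strand. Capitals mark matches to CCAAT, any 9 bases and CCACG, searched on both strands. RefSeq starts can differ from the gene positions given above, which are from GENCODE. For Hspa5 the run reaches to 34772089, past the GENCODE start of 34771970.
Hspa5 (chr2:34771840-34772089, plus strand): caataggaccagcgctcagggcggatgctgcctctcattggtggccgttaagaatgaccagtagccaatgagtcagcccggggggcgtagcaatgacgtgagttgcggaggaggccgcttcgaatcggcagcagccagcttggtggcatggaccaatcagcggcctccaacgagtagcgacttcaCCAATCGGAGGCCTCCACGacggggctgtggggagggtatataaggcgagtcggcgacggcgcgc
Hsp90b1 (chr10:86705445-86705694, minus strand): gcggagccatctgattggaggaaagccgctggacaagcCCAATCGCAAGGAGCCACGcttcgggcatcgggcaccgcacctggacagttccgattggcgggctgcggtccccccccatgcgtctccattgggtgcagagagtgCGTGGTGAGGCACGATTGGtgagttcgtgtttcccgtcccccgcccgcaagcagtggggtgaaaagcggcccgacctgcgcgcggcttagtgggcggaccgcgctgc
Creld2 (chr15:88819396-88819645, plus strand): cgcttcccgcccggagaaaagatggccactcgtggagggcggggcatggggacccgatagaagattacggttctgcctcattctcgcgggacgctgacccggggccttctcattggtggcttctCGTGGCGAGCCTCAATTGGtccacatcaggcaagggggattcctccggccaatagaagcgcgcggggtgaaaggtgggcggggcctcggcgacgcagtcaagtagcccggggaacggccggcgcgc
The motif was searched in windows from 250 bases before to 50 bases after the start, and 39 of 32851 such windows held it (0.119%). It was found in 8 of the 19 unfolded protein response genes with an entry, namely Calr, Canx, Creld2, Dnajc3, Hsp90b1, Hspa5, Pdia6 and Syvn1. Of the 16 tested genes that held it, 10 were higher at day 28 and 1 was lower, with a median log2 fold change of 0.51. Of the 10521 tested genes with an entry and no match, 18.1% were higher. The 16 include the 8 just named, all of them already counted above as higher. The motif count is therefore not separate from the rise of that list. A variant element, ATTGG, any base and CCACG, was in 12 windows (0.0365%), among them those of Dnajb11 and Herpud1. These matches describe letters and do not show binding.

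Genes of the integrated stress response rose. Of 21 tested members, 16 were higher and 1 lower, with a median of 0.43. Ddit3, which encodes CHOP, stood at 586 and 548 CPM at day 14 and 1449 and 1265 at day 28 (1.26 ± 0.08, adjusted p = 5.24e-10). Ppp1r15a, which encodes GADD34 and restarts translation, stood at 63.99 and 62.9 CPM at day 14 and 168 and 203 at day 28 (1.54 ± 0.09, adjusted p = 1.74e-10). Gdf15, a secreted stress cytokine, stood at 13.7 and 11.6 CPM at day 14 and 24.8 and 39.1 at day 28 (1.32 ± 0.18, adjusted p = 7.94e-06). All 3, with Atf3 above, had day 28 libraries well above those of day 14. Trib3, a pseudokinase induced by CHOP, rose by 0.93 and Sesn2 by 0.91. Atf4 itself, whose protein is regulated mainly by translation, rose by 0.32. Enzymes of serine and one-carbon metabolism moved less, with 0.47 for Mthfd2 and 0.31 for Shmt2, and Psat1 was not called (-0.14, adjusted p = 0.0879), though it was called lower without replicate 1 of day 28 (-0.20, adjusted p = 0.0179). The lowered member was Ddit4, an inhibitor of mTORC1 also known as a hypoxia gene (-0.68 ± 0.18, adjusted p = 0.00528), which was no longer called without replicate 1 of day 14 (-0.53, adjusted p = 0.104) or replicate 2 of day 28 (-0.41, adjusted p = 0.0672).

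Amino acid supply followed in the same direction. Of 20 cytosolic aminoacyl-tRNA synthetases, 12 were higher and 2 lower (median 0.27). Wars stood at 75.6 and 67.2 CPM at day 14 and 107 and 126 at day 28 (0.70 ± 0.08, adjusted p = 1.9e-06), Iars changed by 0.49 and Nars by 0.45. The 2 that fell were Hars (-0.36) and Kars (-0.29). Of 13 amino acid transporters, 9 were higher and 0 lower (median 0.56). Slc7a11, the cystine importer (ENSMUSG00000027737.10, chromosome 3, 49892526 to 50443614, minus strand), stood at 17.96 and 19.9 CPM at day 14 and 47.5 and 63.4 at day 28 (1.55 ± 0.13, adjusted p = 3.23e-08). Its partner Slc3a2, the heavy chain shared by several transporters, stood at 234 and 229 CPM at day 14 and 384 and 443 at day 28 (0.83 ± 0.07, adjusted p = 1.47e-08). The days did not overlap for either gene. Slc7a11 had stood at 46.7 and 49.9 CPM at day 1, close to its day 28 level and above that of day 14.

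Promoters of Atf3 and Slc7a11 are shown for the CARE letters TGATGNAA, the element known to bind ATF4 and CHOP dimers, with matches on either strand in capitals. The Atf3 run precedes its RefSeq start and lies inside the GENCODE span of the gene given above.
Atf3 (chr1:191183334-191183583, minus strand): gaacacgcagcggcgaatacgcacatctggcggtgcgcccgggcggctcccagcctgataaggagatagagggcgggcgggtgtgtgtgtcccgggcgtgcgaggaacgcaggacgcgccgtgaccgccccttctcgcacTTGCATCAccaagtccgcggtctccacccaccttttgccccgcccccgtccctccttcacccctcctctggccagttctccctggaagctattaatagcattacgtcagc
Slc7a11 (chr3:50443614-50443863, minus strand): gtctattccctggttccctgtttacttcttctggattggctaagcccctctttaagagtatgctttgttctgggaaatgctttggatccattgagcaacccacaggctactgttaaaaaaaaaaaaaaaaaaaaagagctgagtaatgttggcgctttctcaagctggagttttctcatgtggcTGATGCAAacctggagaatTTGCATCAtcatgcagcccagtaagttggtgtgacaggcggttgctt
These letters occurred in 1304 of the 32851 windows (3.97%), among them those of 7 of the 19 integrated stress response genes with an entry (Asns, Atf3, Chac1, Fgf21, Nupr1, Trib3 and Vldlr), of the synthetases Aars, Gars, Iars, Tars and Yars, and of Slc1a4. Of 279 tested genes that held them, 91 were higher and 39 lower, with a median of 0.14, against 17.8% higher among tested genes with an entry and no match. The 279 include the list members just named, which were counted above as well.

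Interferon-stimulated genes rose as a group. Of 26 tested members, 21 were higher and 0 lower, with a median log2 fold change of 0.80. Ifi44 stood at 18.04 and 20.5 CPM at day 14 and 50.9 and 51.9 at day 28 (1.42 ± 0.19, adjusted p = 8.1e-06). Rtp4, a receptor chaperone induced by interferon, stood at 10.9 and 12.7 CPM at day 14 and 29.6 and 26.3 at day 28 (1.26 ± 0.19, adjusted p = 3.61e-05). Oasl2, an antiviral protein related to oligoadenylate synthetases, stood at 49.3 and 48.4 CPM at day 14 and 99.6 and 90.2 at day 28 (0.96 ± 0.10, adjusted p = 2.56e-07). In each gene the day 28 libraries were above those of day 14, and day 1 was lowest, at 1.89 and 2.30, 1.30 and 1.25 and 8.78 and 8.07 CPM. Ifit3 (1.31) and Cmpk2 (1.12) rose from low levels, and Ifit3 shares sequence with Ifit3b. Signalling genes rose too: Irf9 by 0.81, Irf7 by 0.87 and Stat2 by 0.68. Members that were not called included Isg15, a ubiquitin-like modifier at 30.6 and 32.5 CPM at day 14 and 38.4 and 38.2 at day 28 (0.28, adjusted p = 0.131), and Ifit1 (0.29, adjusted p = 0.35). Among guanylate-binding, immunity-related GTPase and Schlafen genes, 8 of 14 were higher and 0 lower (median 0.67). Irgm2 stood at 18.9 and 18.98 CPM at day 14 and 39.4 and 37.9 at day 28 (1.03 ± 0.13, adjusted p = 3.9e-06), and Gbp3 changed by 0.96 and Slfn8 by 0.94. Exons of Irgm2 overlap those of Igtp on the same strand, so reads may be split between them.

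The promoters of Rsad2, the antiviral enzyme viperin (1.30), and of Irgm2 are shown for the core letters of the interferon-stimulated response element, GAAA, any 2 bases and GAAA, with matches on either strand in capitals. The Irgm2 run precedes its RefSeq start and lies inside the GENCODE span of that gene.
Rsad2 (chr12:26456453-26456702, minus strand): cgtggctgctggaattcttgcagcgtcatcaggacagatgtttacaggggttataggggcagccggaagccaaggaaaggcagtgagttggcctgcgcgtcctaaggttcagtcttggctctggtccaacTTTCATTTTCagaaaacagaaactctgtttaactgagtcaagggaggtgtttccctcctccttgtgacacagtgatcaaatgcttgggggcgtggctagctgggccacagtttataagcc
Irgm2 (chr11:58214727-58214976, plus strand): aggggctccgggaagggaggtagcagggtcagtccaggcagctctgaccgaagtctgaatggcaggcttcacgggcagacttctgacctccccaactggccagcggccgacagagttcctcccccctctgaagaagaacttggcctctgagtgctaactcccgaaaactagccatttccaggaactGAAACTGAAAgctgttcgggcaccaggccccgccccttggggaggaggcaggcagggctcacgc
The core was present in 1131 of 32851 windows (3.44%), in 11 of 19 interferon-stimulated genes with an entry and in 11 of 12 of the GTPase and Schlafen genes. Of the 377 tested genes that held it, 102 were higher at day 28 and 45 lower, with a median of 0.08, against 17.9% higher among those without it. The 377 include 10 tested members of each of these 2 lists, which were counted above as well.

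Antigen presentation genes rose with them. Of 15 tested genes, 11 were higher and 0 lower (median 0.51). H2-D1, a class I heavy chain, stood at 588 and 570.3 CPM at day 14 and 955 and 898 at day 28 (0.68 ± 0.06, adjusted p = 1.44e-07), and B2m, the light chain, at 841 and 765 CPM at day 14 and 1182 and 1140.5 at day 28 (0.53 ± 0.06, adjusted p = 1.37e-06). Tapbp, which loads peptide onto class I molecules, changed by 0.81, and Nlrc5, a transactivator of class I genes, by 0.74. H2-Q6 rose by 1.11 from a low level, and the class I genes resemble each other closely, so reads may be assigned to the wrong member. The immunoproteasome subunit Psmb8 rose (0.60), while Psmb9 was not called (-0.35, adjusted p = 0.222).

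**Figure D3:**
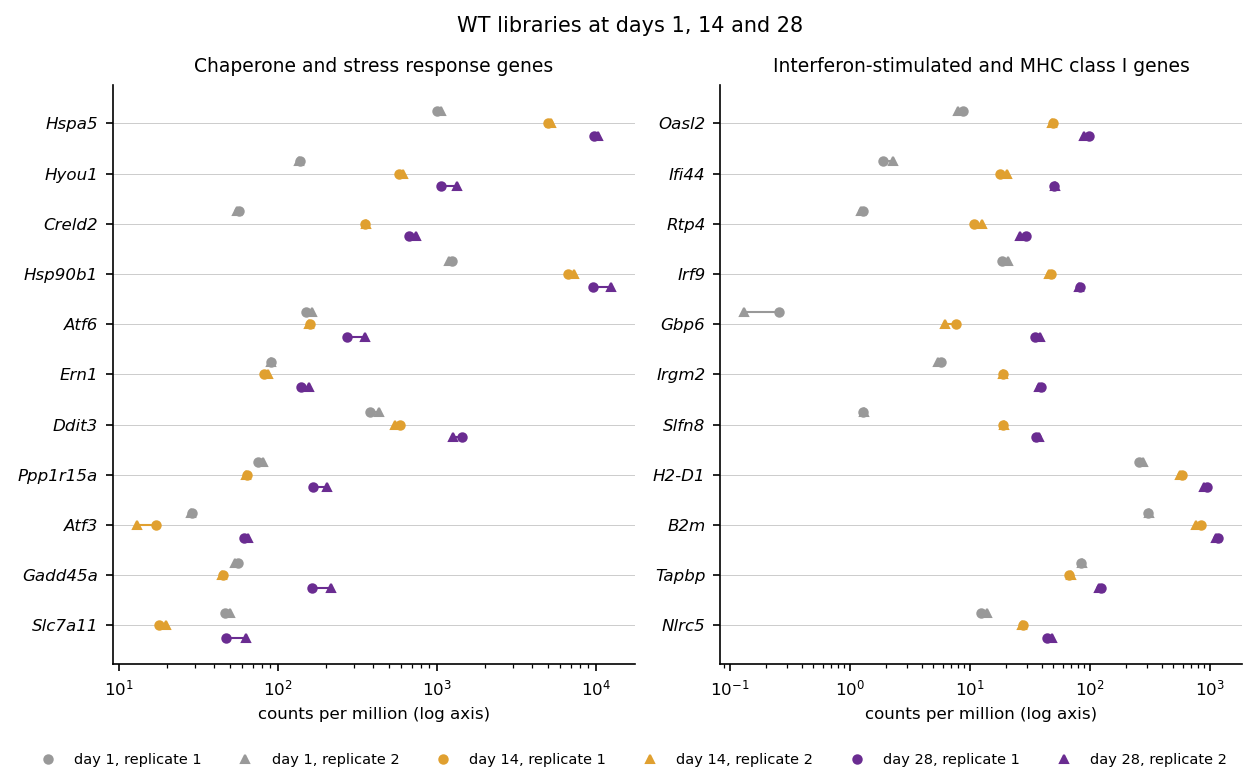
CPM, on a log axis, of chaperone and stress response genes (left) and of interferon-stimulated and MHC class I genes (right) in the WT libraries of day 1 (grey), day 14 (orange) and day 28 (purple), with circles for replicate 1 and triangles for replicate 2. Day 28 is to the right of day 14 for every gene drawn. Hspa5 and Ifi44 step up at each time, whereas Atf3 and Slc7a11 dip at day 14.

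Bone matrix genes fell. Of 25 tested collagen chains, 17 were lower and 2 higher, with a median log2 fold change of -0.53. Col1a1, the main chain of bone collagen (ENSMUSG00000001506.10, chromosome 11, 94936224 to 94953042, plus strand), stood at 6895 and 7504 CPM at day 14 and 3054 and 2046 at day 28 (-1.50 ± 0.16, adjusted p = 4.66e-07). Its partner Col1a2 stood at 9172 and 9807 CPM at day 14 and 5124 and 3763 at day 28 (-1.09 ± 0.11, adjusted p = 1.66e-07). Both days stood apart for the pair, day 14 was above day 1 (4884 and 4740.0 CPM for Col1a1), and day 28 was below day 1. The fibril-forming chains Col3a1 (-1.13), Col5a1 (-0.98), Col11a1 (-0.85), Col11a2 (-1.16) and Col24a1 (-1.48) fell too. Col4a1 and Col4a2, of basement membranes, were not called (0.00 and -0.04), and Col5a3 (0.70) and Col18a1 (0.36) rose. Among genes that process collagen, 16 of 25 were lower and 0 higher (median -0.32, or -0.54 without replicate 1 of day 28). Loxl4, a lysyl oxidase that cross-links fibrils, stood at 196 and 209 CPM at day 14 and 94.9 and 93.5 at day 28 (-1.10 ± 0.08, adjusted p = 4.45e-09). The prolyl hydroxylase subunits P4ha1 and P4ha2 changed by -0.95 and -0.91, while P4hb, which is also a general folding enzyme, was not called (-0.02, adjusted p = 0.83). The collagen chaperone Serpinh1 was not called either (-0.09, adjusted p = 0.301), but was called lower without replicate 1 of day 28 (-0.15, adjusted p = 0.0397). Without replicate 2 of day 28, 2 processing genes were called higher. Of 19 leucine-rich and matricellular proteins, 9 were lower and 0 higher (median -0.54, or -0.21 without replicate 2 of day 14 and -0.15 without replicate 2 of day 28). Postn, periostin, stood at 772 and 785 CPM at day 14 and 272 and 218 at day 28 (-1.66 ± 0.10, adjusted p = 3.2e-10). Eln (-1.36), Aspn (-1.34) and Thbs1 (-1.27) fell too, while Fn1, fibronectin, was not called (0.16, adjusted p = 0.074). Without replicate 2 of day 28, 3 members were called higher, Fn1 among them (0.21, adjusted p = 0.0102).

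The mineralisation genes divided. Of 13 tested genes, 7 were lower and 3 higher (median -0.76, or -0.31 without replicate 1 of day 14). Alpl, the alkaline phosphatase that frees phosphate, stood at 737 and 662 CPM at day 14 and 443 and 292 at day 28 (-0.93 ± 0.14, adjusted p = 4.05e-05). Phospho1, a phosphatase of matrix vesicles, stood at 40.3 and 41.2 CPM at day 14 and 15.8 and 12.6 at day 28 (-1.51 ± 0.12, adjusted p = 1.79e-08). Its exons overlap those of Zfp652 on the same strand and of Abi3 on the other. Smpd3, a sphingomyelinase needed for bone mineral, stood at 229 and 219 CPM at day 14 and 68.5 and 34.01 at day 28 (-2.11 ± 0.21, adjusted p = 2.39e-07), and without replicate 1 of day 28 its change was -2.72. Day 28 was below day 14 in both libraries for all 3. Ibsp, bone sialoprotein (ENSMUSG00000029306.8, chromosome 5, 104299171 to 104311469, plus strand), stood at 3532 and 3534 CPM at day 14 and 1749.6 and 1309 at day 28 (-1.21 ± 0.13, adjusted p = 7.54e-07). Sparc, osteonectin, stood at 3326 and 3416 CPM at day 14 and 1763 and 1274 at day 28 (-1.15 ± 0.12, adjusted p = 6.02e-07). Ifitm5, an osteoblast membrane protein, stood at 27.7 and 23.95 CPM at day 14 and 9.28 and 5.04 at day 28 (-1.83 ± 0.19, adjusted p = 3.52e-07). These fell in both day 28 libraries, while Spp1, osteopontin (ENSMUSG00000029304.14, chromosome 5, 104435118 to 104441050, plus strand), went the other way, from 121 and 127 CPM to 325 and 265 (1.25 ± 0.08, adjusted p = 9.22e-10). The pyrophosphate transporter Ank (0.42) and the phosphate transporter Slc20a1 (0.50) rose too. Enpp1 (0.27), Slc20a2 (0.15) and Bglap2 (0.08) were not called. Bglap, osteocalcin, fell from a low level (-0.76 ± 0.27, adjusted p = 0.0336), was no longer called without replicate 1 of day 14 (-0.31, adjusted p = 0.557) or replicate 2 of day 28 (-0.66, adjusted p = 0.128), and resembles Bglap2 closely.

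Transcription factors of the osteoblast lineage fell with the matrix. Of 13, 7 were lower and 1 higher (median -0.56). Runx2, the master factor of the lineage, stood at 177 and 170.0 CPM at day 14 and 128 and 101 at day 28 (-0.60 ± 0.10, adjusted p = 8.12e-05). Sp7, osterix, which acts after it, stood at 262 and 236 CPM at day 14 and 99.2 and 58.9 at day 28 (-1.65 ± 0.17, adjusted p = 2.7e-07). Mef2c, a factor that also acts on Sost, stood at 644 and 649 CPM at day 14 and 318 and 238 at day 28 (-1.22 ± 0.12, adjusted p = 3.02e-07). The days did not overlap for these 3, and Sp7 fell furthest. Dlx5 (-0.53) fell too, and so did Dlx3 (-1.52, or -2.29 without replicate 1 of day 28). Zfp521 (-0.40) was no longer called without replicate 1 of day 14 (-0.26, adjusted p = 0.323) or replicate 2 of day 28 (-0.26, adjusted p = 0.184). Runx3, the member that rose (0.23, adjusted p = 0.0233), was no longer called without replicate 2 of day 14 (0.18, adjusted p = 0.191) or replicate 1 of day 28 (0.19, adjusted p = 0.0727). Runx1 (0.04), Msx1 (-0.60), Msx2 (-0.87), Dlx6 (-0.49) and Twist1 (-0.22) were not called, of which Dlx6 (-0.86) and Twist1 (-0.47) were called lower without replicate 1 of day 28. Msx2 was called lower without replicate 2 of day 28 (adjusted p = 0.00703), which leaves day 28 with 0 counts of it, so the fitted -6.03 depends on the prior count and is no bound.

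Among 13 tested osteocyte markers, 5 were lower and 1 higher (median -0.38, ranging from -0.76 to -0.19 when 1 library was left out). The counts of this paragraph stand beside 34.7% called over all genes. The lower ones were Irx5 at 48.2 and 49.98 CPM at day 14 and 29.4 and 21.4 at day 28 (-0.94 ± 0.13, adjusted p = 8.52e-06), Ackr3 (-1.64), Dkk1 (-2.07), Ptprz1 (-1.46) and Phex (-0.92). The higher one was Ostn. With a mean of at least 5 CPM required, the number of markers called moved by more than 1.5-fold, so some of these called markers lay below that level. Phex, an endopeptidase of phosphate balance, was no longer called without replicate 2 of day 14 (-0.62, adjusted p = 0.135), and without replicate 1 of day 28 the changes of Ackr3 and Dkk1 were -2.50 and -2.98. Dmp1 (-0.38, adjusted p = 0.168), Pdpn (-0.27), Capg (-0.19), Cd44 (-0.10) and Fam20c (0.23) were not called. Without replicate 1 of day 28, 9 markers were lower, Dmp1 (-0.76, adjusted p = 0.0075), Pdpn (-0.53), Capg (-0.39) and Cd44 (-0.29) among them, and without replicate 2 Fam20c was called higher (0.30, adjusted p = 0.0212). Of hormone and vitamin D receptors, 4 were higher and 2 lower of 10 tested, with 2 higher without replicate 1 of day 14, 4 lower without replicate 1 of day 28 and 1 lower with any other of the 4 libraries left out. Pth1r, the receptor of parathyroid hormone, stood at 204 and 186 CPM at day 14 and 95.5 and 56.9 at day 28 (-1.35 ± 0.17, adjusted p = 3.52e-06), with an overlap of Myl3 on the other strand. The retinoic acid receptors Rara (0.43) and Rarg (0.60) rose, and so did the oestrogen receptor Esr1 (0.68), which was no longer called without replicate 1 of day 14 (0.45, adjusted p = 0.0992). Of osteoclast-regulating factors, 1 was higher and 2 lower of 8 tested, a share near the 34.7% called over all genes, and 3 were higher without replicate 1 of day 28. Tnfrsf11b, which encodes osteoprotegerin, the decoy that restrains osteoclasts, stood at 47.9 and 52.6 CPM at day 14 and 24.8 and 17.2 at day 28 (-1.25 ± 0.14, adjusted p = 1.31e-06). Csf1, a growth factor for osteoclast precursors, stood at 204 and 202 CPM at day 14 and 347 and 340.3 at day 28 (0.76 ± 0.07, adjusted p = 1.71e-07). So the decoy fell and Csf1 rose, in both libraries each, while Tnfsf11, which encodes RANKL, had too few counts to be tested. Cxcl12 fell (-0.67).

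Matrix-degrading enzymes and their inhibitors showed no common direction, with 7 higher and 6 lower of 20 tested (median 0.11, or -0.06 and 0.29 without replicate 1 or 2 of day 28). Over all genes 34.7% were called. Timp3, an inhibitor of metalloproteases bound to matrix, stood at 359 and 350.5 CPM at day 14 and 706 and 753 at day 28 (1.04 ± 0.07, adjusted p = 1.15e-09), and its exons overlap Syn3 on the other strand. Adamts12 stood at 230.5 and 231 CPM at day 14 and 91.6 and 61.6 at day 28 (-1.58 ± 0.16, adjusted p = 2.74e-07) and Adam12 at 46.03 and 39.3 CPM at day 14 and 16.5 and 11.9 at day 28 (-1.58 ± 0.16, adjusted p = 2.89e-07), and both fell in both day 28 libraries. Mmp2 (0.50) rose and Mmp9 (-0.56) fell, and Mmp14 was not called (0.10, adjusted p = 0.337). Without replicate 2 of day 14, 3 members were called higher, and without replicate 2 of day 28 Mmp14 was called (0.22, adjusted p = 0.00714).

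**Figure D4:**
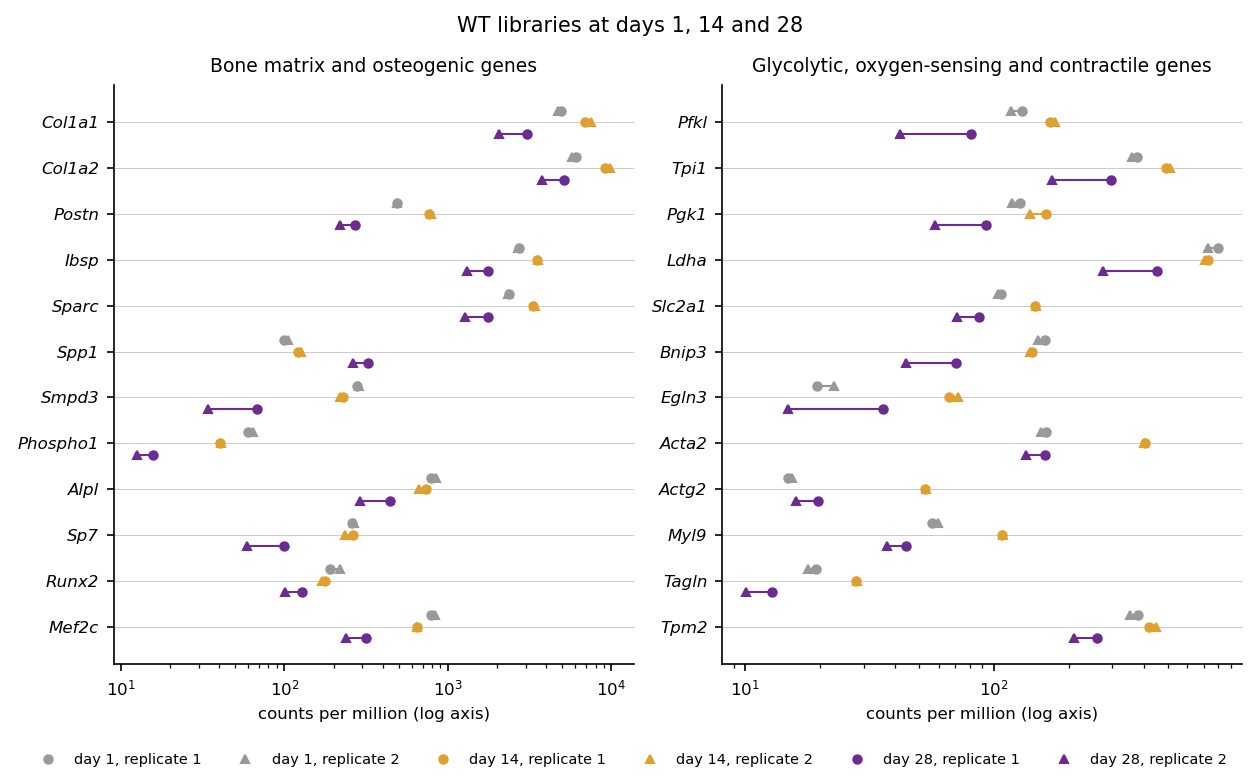
CPM, on a log axis, of bone matrix and osteogenic genes (left) and of glycolytic, oxygen-sensing and contractile genes (right) in the WT libraries of day 1 (grey), day 14 (orange) and day 28 (purple), with circles for replicate 1 and triangles for replicate 2. Day 28 is to the left of day 14 for every gene drawn but Spp1, and its 2 replicates are further apart than those of day 14 in most of them.

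Glycolysis fell along the pathway. Of 21 tested genes, 17 were lower and 0 higher (median -0.73, or -0.45 without replicate 2 of day 28). Slc2a1, the glucose transporter GLUT1, stood at 146 and 148 CPM at day 14 and 87.3 and 71.1 at day 28 (-0.89 ± 0.09, adjusted p = 2.7e-07). Pfkl, the liver form of phosphofructokinase, stood at 168 and 176 CPM at day 14 and 80.7 and 42.1 at day 28 (-1.47 ± 0.16, adjusted p = 4.87e-07). Tpi1, triose phosphate isomerase, stood at 495 and 509 CPM at day 14 and 297 and 171 at day 28 (-1.10 ± 0.14, adjusted p = 4.51e-06). The days did not overlap, and replicate 2 of day 28 was the lowest library for each. Further down the pathway Pgk1 (-0.999), Pgam1 (-1.22), Eno1 (-0.73), Pkm (-0.51) and Ldha (-0.97) fell, while Hk2 (-0.09) and Eno2 (0.23) were not called. Slc16a3, the lactate exporter (-1.07), was no longer called without replicate 2 of day 28 (-0.55, adjusted p = 0.0559) and changed by -2 without replicate 1. Of 19 hypoxia-inducible factors and targets, 10 were lower and 1 higher (median -0.40). Bnip3, a mitophagy receptor, stood at 142 and 139 CPM at day 14 and 70.2 and 44.3 at day 28 (-1.29 ± 0.13, adjusted p = 3.76e-07). Egln1, an oxygen-sensing prolyl hydroxylase, stood at 139 and 153 CPM at day 14 and 79.5 and 50.4 at day 28 (-1.16 ± 0.12, adjusted p = 4.59e-07), and Egln3 changed by -1.42 (-2.21 without replicate 1 of day 28). Pdk1, which closes the entry of pyruvate to mitochondria, changed by -1.12. Vegfa (0.04), Hif1a (0.07) and Kdm3a (0.04) were not called, and Stc2 rose (0.92).

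Respiratory chain genes differed by genome. Of 77 nuclear-encoded subunits, 36 were lower and 0 higher (median -0.24), for example Ndufa13 (-0.60) and Atp5e (-0.57). Without replicate 1 of day 14, 23 were lower. Of 12 mitochondrially encoded genes, 5 were higher and 0 lower (median 0.51). mt-Nd2 stood at 730.2 and 618 CPM at day 14 and 1617 and 1309.7 at day 28 (1.12 ± 0.16, adjusted p = 2.23e-05), and mt-Cytb at 2119 and 1712 CPM at day 14 and 3572 and 3139 at day 28 (0.81 ± 0.12, adjusted p = 2.2e-05). The days did not overlap for either. Mitochondrial RNA made up 1.33% and 1.12% of counts at day 14 and 2.02% and 1.74% at day 28, and the part of this in other changes was not tested. mt-Nd4 rose (1.08), and its reads overlap those of mt-Nd4l.

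Contractile genes fell. Of 22 tested, 16 were lower and 2 higher (median -0.69), and 1 was higher when any single library of the 4 was left out. Acta2, smooth muscle actin (ENSMUSG00000035783.9, chromosome 19, 34241090 to 34255590, minus strand), stood at 406 and 400.5 CPM at day 14 and 160.3 and 135 at day 28 (-1.45 ± 0.07, adjusted p = 4.45e-11). Actg2, a further smooth muscle actin, stood at 53.03 and 53.5 CPM at day 14 and 19.6 and 16.02 at day 28 (-1.57 ± 0.15, adjusted p = 1.71e-07). Myl9, a myosin light chain, stood at 108 and 109 CPM at day 14 and 44.5 and 37.3 at day 28 (-1.40 ± 0.08, adjusted p = 2.53e-10). Day 28 was below day 14 in both libraries for all 3, and the day 28 levels of Acta2 lay near those of day 1, 162 and 155 CPM. The general actins Actb (-0.66) and Actg1 (-0.90), the tropomyosins Tpm1 (-0.87) and Tpm2 (-0.88), and Myh9 (-0.54) fell, while Actn1 was not called (-0.05, adjusted p = 0.604). The targets of YAP and TAZ, coactivators that respond to tension, went both ways: 8 of 18 were higher and 5 lower (median 0.23, or 0.12 without replicate 2 of day 28). Over all genes 34.7% were called. Ccn1 (-0.45) and Nt5e (-0.43) fell, whereas F3, tissue factor (0.73), and Axl (0.39) rose. Yap1 itself fell (-0.37) and Wwtr1, which encodes TAZ, rose (0.69).

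The Wnt pathway, known to drive bone formation through beta-catenin, was lower in its feedback genes. Of 13 feedback genes and targets, 7 were lower and 1 higher (median -0.46, or -0.74 without replicate 1 of day 28), and 0 were higher with any other of the 4 libraries left out. Axin2 stood at 29.9 and 26.5 CPM at day 14 and 16.2 and 11.3 at day 28 (-1.03 ± 0.15, adjusted p = 2.41e-05). Tcf7 changed by -0.67, Rnf43 by -0.74 and Ccn4 by -0.74, while Ccnd1 was not called (0.01, adjusted p = 0.904). Of the Wnt receptors, 1 was higher and 5 lower of 15 tested, with 0 higher without replicate 2 of day 14. Among them Fzd8 (-0.77), Lrp4 (-0.48) and Lrp5 (-0.48) fell and Lrp6 was not called (-0.01). Of the secreted inhibitors and R-spondins, 3 were higher and 5 lower of 11 tested, with 1 higher without replicate 1 of either day. Wif1 stood at 12.5 and 10.5 CPM at day 14 and 4.33 and 2.72 at day 28 (-1.69 ± 0.25, adjusted p = 2.53e-05), and Sfrp2 at 148 and 143 CPM at day 14 and 78.9 and 55.5 at day 28 (-1.11 ± 0.11, adjusted p = 1.44e-07), and both fell in both day 28 libraries. Rspo3, an activator of the pathway, rose (0.51), with an overlap of Gm48159 on the other strand, and so did Sfrp4 (1.12), which was no longer called without replicate 1 of day 14 (1.02, adjusted p = 0.112) or of day 28 (0.31, adjusted p = 0.539). Of BMP and TGF-beta receptors, regulators and targets, 8 were higher and 12 lower of 30 tested. The antagonists Chrdl1 (-1.56) and Fst (-0.90) and the target Id3 (-0.70) fell, and Smad7 rose (0.87). In the Notch pathway 4 were higher and 3 lower of 12 tested. Notch1 stood at 30.6 and 26.5 CPM at day 14 and 52.9 and 67.9 at day 28 (1.07 ± 0.11, adjusted p = 4.31e-07) and its ligand Jag1 rose (0.75), while the target Hey1 fell (-1.39) and Hes1 rose (0.51). On the list of fibroblast growth factors, receptors and feedback genes, 6 were higher and 4 lower of 17 tested. Changes among its feedback genes included 1.37 for Spry4, 1.12 for Spry2, 1.01 for Etv4 and 0.69 for Dusp6, while the receptors Fgfr2 (-0.80) and Fgfr3 (-0.41) fell. The counts of all lists in this paragraph stand beside 34.7% called over all genes.

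Lipid and clock genes rose. Of 22 sterol synthesis genes, 12 were higher and 1 lower (median 0.39). Insig1, the sterol-regulated anchor of SREBP, stood at 84.7 and 79.1 CPM at day 14 and 193 and 180.3 at day 28 (1.19 ± 0.07, adjusted p = 5.24e-10). Lss (0.81) and Fdps (0.70) rose. The desaturases Fads1 (0.72) and Fads2 (0.67) rose, and Me1, which makes NADPH, fell (-0.56). Of 14 clock genes, 10 were higher and 0 lower (median 0.45). Arntl, the clock activator BMAL1, stood at 16.9 and 14.2 CPM at day 14 and 30.8 and 32.7 at day 28 (1.01 ± 0.11, adjusted p = 7.08e-07). Bhlhe41 (0.99) and Per2 (0.54) rose as well. Activator and repressors were thus higher together, and no label gives the hour of collection. Nr1d1 rose (1.16), with an overlap of Thra on the other strand.

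Lysosome, autophagy and redox genes were mixed, and their counts stand beside 34.7% called over all genes. Of 27 lysosomal genes, 11 were higher and 3 lower (median 0.11). Sqstm1, the autophagy receptor p62, stood at 577 and 603 CPM at day 14 and 1118 and 1218 at day 28 (0.99 ± 0.07, adjusted p = 1.47e-09), with an overlap of Mrnip on the other strand. Gpnmb, a lysosomal membrane glycoprotein, stood at 424 and 435 CPM at day 14 and 792 and 805 at day 28 (0.90 ± 0.08, adjusted p = 4.43e-08), and Gabarapl1 rose by 0.95. These 3 were higher in both day 28 libraries. Among 23 antioxidant genes, 5 were higher and 8 lower. Txnrd1, thioredoxin reductase, stood at 127 and 128 CPM at day 14 and 243 and 377 at day 28 (1.28 ± 0.14, adjusted p = 4.97e-07), and Gclc, which limits glutathione synthesis, at 38.5 and 36.7 CPM at day 14 and 76.97 and 117 at day 28 (1.36 ± 0.14, adjusted p = 4.87e-07). Srxn1 (0.83) and Hmox1 (0.63) rose too. The falls were in peroxiredoxins such as Prdx2 (-0.56) and Prdx4 (-0.45) and in thioredoxin, Txn1 (-0.61).

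Growth genes moved little. Of 77 cytosolic ribosomal protein genes, 34 were lower and 2 higher, with a median of -0.17, and 13 were lower without replicate 1 of day 14. Rps2 (-0.66) and Rpl41 (-0.60) fell most among them. Many of these genes have processed copies elsewhere in the genome that can take reads. Proliferation markers stayed measurable at day 28. Mki67, a marker of cycling cells, stood at 733 and 698 CPM at day 14 and 681 and 641 at day 28 (-0.12, adjusted p = 0.143), and Top2a, a topoisomerase of dividing cells, at 1107 and 1135 CPM at day 14 and 1013 and 1068 at day 28 (-0.11, adjusted p = 0.179), and neither was called. Without replicate 1 of day 28 Mki67 was called lower (-0.16, adjusted p = 0.0304). Of 22 replication genes, 10 were lower and 3 higher (median -0.16), with Mcm7 (-0.39) and Gins2 (-0.58) among the lower. Of 25 mitosis genes, 6 were lower and 1 higher (median -0.06, or -0.02 without replicate 1 of day 14), with Birc5, survivin, at -0.72. Over all genes tested, 34.7% were called and 16.8% were lower. Counting both directions, mitosis genes were called at a share near that of all genes, so their count sets them little apart. Without replicate 1 of day 14, the lower members were 6 in replication and 3 in mitosis, and no replication gene was higher without replicate 2 of either day.

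**Figure D5:**
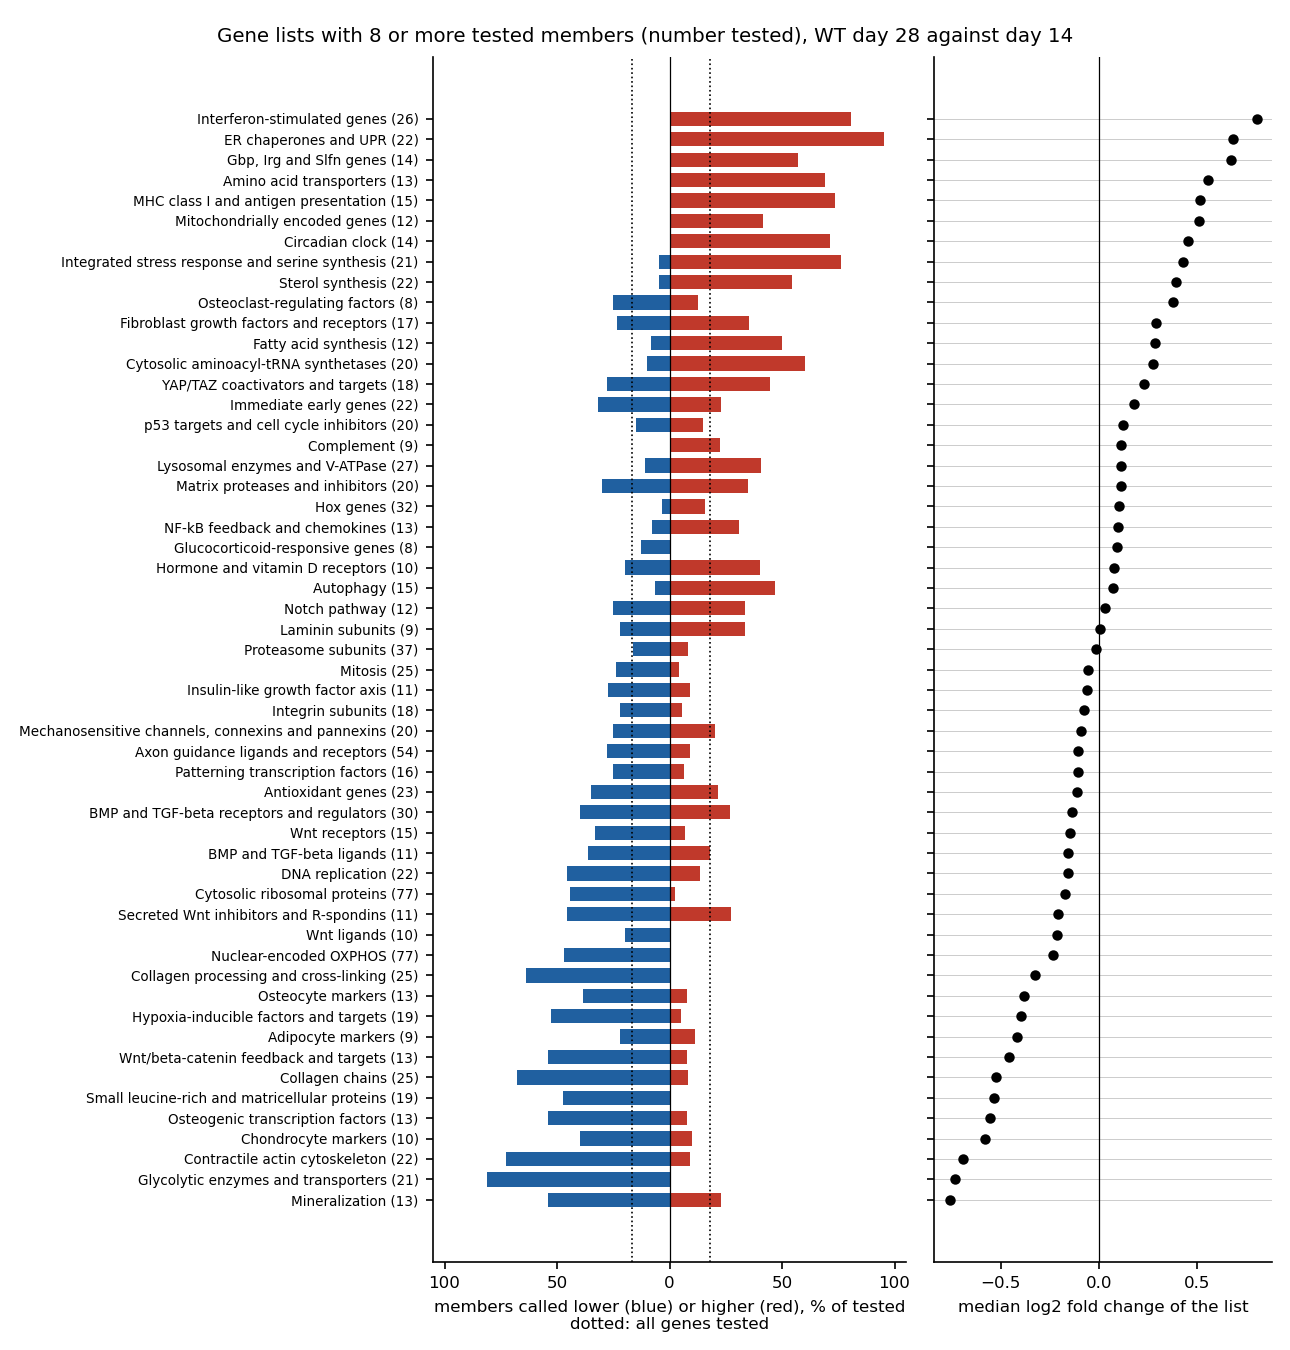
For each list of at least 8 tested genes, the share of members called lower (blue) or higher (red) at day 28 in percent of those tested, and the median log2 fold change (right panel), sorted by that median. Dotted lines give the shares over all genes tested, 16.8% lower and 17.9% higher. Interferon-stimulated genes and chaperones are at the top and glycolytic and mineralisation genes at the bottom.

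Channels that sense force were also read. Piezo1 stood at 211 and 206 CPM at day 14 and 235 and 242 at day 28 (0.19 ± 0.06, adjusted p = 0.0151). Its day 28 libraries were slightly above those of day 14, but the gene was no longer called without replicate 1 of day 14 (0.21, adjusted p = 0.054) or replicate 2 of day 14 (0.18, adjusted p = 0.107), and its exons overlap Ctu2 on the other strand. Piezo2, the related channel, stood at 26.6 and 28.00 CPM at day 14 and 33.1 and 31.2 at day 28 (0.24, adjusted p = 0.103). Panx3, a pannexin of differentiating osteoblasts, stood at 163 and 148 CPM at day 14 and 78.3 and 42.7 at day 28 (-1.35 ± 0.19, adjusted p = 1.33e-05), and Gja1, the connexin that joins osteocytes, at 112 and 117 CPM at day 14 and 97.98 and 72.1 at day 28 (-0.42 ± 0.09, adjusted p = 0.00149). Both junction genes were lower in both day 28 libraries. Markers of other cell types were summed over each list. The summed CPM of skeletal muscle markers was 12.6 and 15.6 at day 14 and 8.37 and 8.75 at day 28, and that of blood cell markers 13.6 and 25.9 and 12.6 and 13.2. Endothelial markers summed to 13.6 and 10.2 and 26.7 and 23.8, and adipocyte markers to 162 and 163 and 233 and 269. The muscle and blood sums were thus lower at day 28 in both libraries, blood only slightly so against replicate 1 of day 14. The endothelial and adipocyte sums were higher. Of 9 tested adipocyte markers, though, 1 (Klf15) was higher and 2 lower, with a median log2 fold change of -0.42, so that sum does not speak for the list. Klf15, a glucocorticoid-induced factor on the adipocyte list, stood at 66.7 and 65.95 CPM at day 14 and 146 and 199 at day 28 (1.38 ± 0.11, adjusted p = 1.79e-08), while Plin1, Cidec, Lep and Cfd had too few counts to be tested. Among chondrocyte markers, Col2a1 stood at 12.3 and 11.5 CPM at day 14 and 3.21 and 3.22 at day 28 (-1.89 ± 0.42, adjusted p = 0.0014) and Sox9 at 28.2 and 28.3 CPM at day 14 and 59.2 and 52.8 at day 28 (0.99 ± 0.09, adjusted p = 8.61e-08), in opposite directions. The part of these cell types in the other changes was not tested.

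The change from day 14 to day 28 was set against that of the KO line over the same days, by the difference of the 2 changes in the same fit. It differed for 3323 genes (24.1%), with 1738 higher and 1585 lower in the change of KO than in that of WT. The chaperones rose further in KO, where the median log2 fold change of the 22 genes was 2.48, and the difference was called in all 22. Hyou1 went from 146 and 125 CPM to 1450.2 and 1476 in KO, and its change there exceeded that of WT by 2.41 ± 0.12, adjusted p = 7.77e-12. Ddit3 went from 84.6 and 93.4 to 1249.8 and 1144 in KO, a change above that of WT by 2.49 ± 0.11, adjusted p = 1.14e-12. Ribosomal protein genes had a median of 0.47 in KO, with 63 of 77 called higher in its change. Col1a1 went from 17934 and 17684 CPM to 2813 and 1710.1 in KO, a change below that of WT by a log2 difference of -1.48 ± 0.22, adjusted p = 3.63e-05. Mitochondrially encoded genes had a median of -0.34 in KO, and 8 of 12 were called lower in its change. For interferon-stimulated genes the KO median was 0.55, and the difference was called in 4 members as higher and in 3 as lower in KO. Sterol synthesis had a median of 0.01 in KO, with 7 of 22 called lower and 1 called higher in its change. Because the KO line may be 1 clone, a difference of lines and an effect of the deletion cannot be told apart.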

How the data were processed

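The deposited table gives raw read counts per gene for 12 libraries, and the values are whole-number counts made by the authors. Per the submitters' processing notes, STAR, Subread, featureCounts and edgeR were used with mm10; their versions, the annotation, the strand setting and the treatment of multiply mapped reads were not given in the sources used here. Here, edgeR 4.0.16 in R 4.3.3 was run on all 12 libraries with TMM factors and 1 coefficient for each of 6 groups, on genes kept by filterByExpr (minimum count 10, minimum total 15). This gave 6 residual degrees of freedom and a biological coefficient of variation of 5.53%. The script was tested on simulated data. The 3 transgene rows were left out, 9345 rows had no count in any library, and no column was left out.

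Genes named are the 15 highest and 15 lowest called changes with at least 5 CPM and no overlap of days, all bone list members, up to 4 called members of each other list, Piezo1 and Piezo2, and the 5 largest changes each way at 500 CPM or more; other members are given only with their values. A few genes that this rule names are not reported here. The members and gene lists were chosen with earlier results of these data known. No p was adjusted over a list. Gene positions come from GENCODE vM21 on GRCm38, the build that mm10 names, where 13656 of 13772 tested genes (99.16%) matched by symbol. Exon overlaps are not given for every gene named. Promoters came from RefSeq on GRCm38.p6, with an entry for 10537 tested genes, and their starts can differ from the GENCODE positions. No libraries of a group were duplicates of each other by a chi-square test of their counts. The chi-square per degree of freedom was 10.35 for day 28 of WT, against 1.42 to 5.65 in the other groups. Since the spread was pooled over groups, it may be understated for day 28 of WT. Alternatives covered normalisation, filters, DESeq2 1.42.0, fits on fewer libraries, a replicate block and leaving out each library.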

Additional observations from a re-analysis of the deposited data

Results flagged for a closer look

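Each of the following results stands out because the change from day 14 to day 28 differed between the KO and the WT line by the test of the difference itself (edgeR, quasi-likelihood), which called 3323 genes. Values are log2 differences, the KO change minus the WT change, for the genes with the largest WT changes. Below 0 were Car3 (-3.78), Gpr35 (-2.79), Adamts18 (-2.79), Ankrd37 (-2.29), Grhl3 (-1.73), Smpd3 (-1.56), Col1a1 (-1.48), mt-Nd2 (-1.37), mt-Nd4 (-1.35), Pcolce2 (-1.3), Npnt (-1.15) and Col11a2 (-1.02). Above 0 were Postn (0.406), Prkg2 (0.506), Ptgfr (0.514), Neat1 (0.923), Gadd45a (1.23), Timp3 (1.31), Hyou1 (2.41), Ddit3 (2.49), Tfcp2l1 (3.31) and Ostn (7.13). Ostn stood at 0 and 0 CPM at day 14 and 5.02 and 5.64 at day 28 in the KO line, and at 4.13 and 3.59 and 13.8 and 16.3 in WT. Since both KO libraries of day 14 were at 0, its fitted difference depends on the prior count and is no bound.

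The count table also has rows for transgenes, which entered no comparison. The row Tdtomato held 9 and 19 counts at day 14 and 1 and 2 at day 28, so its highest count in a library was 19. The row YAPS127_P2A_EGFP held 82 and 45 counts at day 14 and 224 and 75 at day 28, with a highest count of 224. The row Cre held 1 count in 1 of the 4 libraries. No label of these libraries names such a transgene, and a row for a YAP fusion can take reads of Yap1 itself.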

How the results depend on the processing

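Over the alternatives run, 3192 to 5543 genes were called against 4778, and every call shared with the fit of all 12 libraries kept its sign. DESeq2 called 3842, the 4 WT libraries alone 3192 and the 6 WT libraries alone 4081. With a mean of at least 5 CPM, 10625 genes were tested and 4436 called. Of these, 106 were more than 2-fold higher and 163 more than 2-fold lower, so many of the 2-fold changes lay at lower levels. With only the 4 WT libraries, 1530 genes were lower. Leaving out 1 library of days 14 and 28 gave 3301 to 5543 called genes and 203 to 529 lowered by more than 2-fold, and the lone library left of a day is then assumed to vary like the other groups. Genes whose change differed between the lines numbered 2426 to 4165 over its alternatives, against 3323. Of the named genes, Fosb changed sign without replicate 1 of day 14 (0.32, against -0.92) and ranged from -1.5 to 0.32 over the libraries left out. Fam20c was called with RLE size factors, and Pdpn and Dlx6 without a filter. Of 257 named genes, 20 lost their call by DESeq2, among them Ptprz1 and Bglap (adjusted p = 0.0508 and 0.119). On the 4 WT libraries alone 26 of 255 named genes lost their call. Among them were Zfp521 (adjusted p = 0.0618), Runx3 (0.0802), Bglap (0.087) and Piezo1 (0.114).

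Leaving out 1 library moved the median log2 fold change by 0.1 or more in 16 to 25 of 59 gene lists.

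With the replicate number as a block, 4739 genes were called, and Panx1 was the named gene that lost its call. No label says whether replicate numbers pair the samples. The correlation of deviations between same-numbered libraries was 0.02 for days 14 and 28 of WT. It ran from -0.12 to 0.244 over 15 pairs of groups and was highest between day 28 of KO and day 28 of WT. A low correlation cannot show that samples were not handled in pairs. With 2 libraries a day, small changes and genes near 1 CPM were the least certain.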

Other observations

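Further gene lists are given for WT cells between day 14 and day 28 by their counts, beside 34.7% called over all genes tested. Of laminin chains, parts of basement membrane, 3 were higher and 2 lower of 9 tested (median 0.004), and 0 to 2 were lower when 1 library was left out. Lama5 stood at 7.17 and 6.36 CPM at day 14 and 20.2 and 13.3 at day 28 (1.31 ± 0.21, adjusted p = 6.77e-05, edgeR's quasi-likelihood test). Lama3 (1.00) rose too, while Lama2 (-0.52, with Gm48084 on the other strand) and Lama4 (-0.25) fell. Without replicate 2 of day 14, Lama2 (-0.50, adjusted p = 0.0703) and Lama4 (-0.26, adjusted p = 0.117) were no longer called, nor were Lama2 (-0.55, adjusted p = 0.058) and Lama4 (-0.23, adjusted p = 0.163) without replicate 1 of day 14 or Lama4 (-0.13, adjusted p = 0.285) without replicate 2 of day 28. Both day 28 libraries of Lama5 were above those of day 14. Of 54 tested axon guidance genes, 5 were higher and 15 lower (median -0.11, or -0.24 without replicate 1 and -0.04 without replicate 2 of day 28), a share near that of all genes, and 7 were lower without replicate 1 of day 14 and 22 without replicate 1 of day 28. Slit2, a secreted guidance cue, stood at 67.4 and 69.4 CPM at day 14 and 171 and 155 at day 28 (1.26 ± 0.07, adjusted p = 2.53e-10), while Sema6a fell (-1.35) and the abundant receptor Nrp2 fell (-0.57). On the insulin-like growth factor list 1 was higher and 3 lower of 11 tested, again near the share of all genes, and 0 to 2 were higher and 3 to 6 lower when 1 library was left out. Igfbp2, a binding protein of insulin-like growth factors, stood at 76.2 and 71.9 CPM at day 14 and 38.03 and 35.5 at day 28 (-1.01 ± 0.10, adjusted p = 2.46e-07), Igfbp3 rose (1.13, but 0.81, adjusted p = 0.156 without replicate 2 of day 14) and Igf1r was not called (-0.00). Of immediate early genes 5 were higher and 7 lower of 22 tested. Egr1 stood at 76.97 and 59.9 CPM at day 14 and 184 and 181 at day 28 (1.41 ± 0.12, adjusted p = 3.59e-08) and Ptgs2, the inducible cyclooxygenase, rose (0.95), whereas Jun (-0.45) fell and Myc was not called (-0.00). Of patterning factors 1 was higher and 4 lower of 16 tested, a share near that of all genes. Of Hox genes 5 were higher and 1 lower of 32 tested, below that share. With 1 library left out, 0 to 3 patterning factors and 2 to 4 Hox genes were higher. Prrx1 (-0.53) and Prrx2 (-0.73), factors of limb mesenchyme, fell, and Hoxa7 rose (0.61). Twist2 had 10 counts over the day 14 libraries and 0 over those of day 28, which is at least 4.3-fold lower against a floor of 3 counts over the group, and it was no longer called without replicate 2 of day 14 (adjusted p = 0.0661).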
